A study of Mus musculus with 2 samples.

Results

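Ccl3, Ccl4, Ccl5, Ccl6, Ccl9 and Ccl22 are 6 genes of secreted CC chemokines, taken here by name from the count matrices of a mouse muscle injury study. All 6 were listed in both matrices, which together list 14371 genes. They were described in macrophages, in type 2 conventional dendritic cells (cDC2) and in mature dendritic cells, the last being dendritic cells that have switched on Ccr7. The tibialis anterior muscle was injected with 50 µl of 10 µM cardiotoxin, a snake venom toxin that destroys muscle fibres, and sampled on day 4. Myeloid cells were sorted as Zombie aqua-, Ly6G-, CD45+ CD11b+, 8000 cells of each genotype were loaded, and 3' droplet libraries were sequenced. There was 1 library from C57BL/6:Cx3cr1CRExGata3fl/fl mice (Gata3KO) and 1 from C57BL/6 mice (Wt). In the Gata3KO mice a Cre recombinase under Cx3cr1 deletes floxed Gata3, so any cell with a Cx3cr1 history can be recombined, and the labels name no control that carries the Cre or the floxed allele alone. The labels do not say how many animals went into a library. The series title sets the comparison in work on how IL-33 steers macrophage metabolism and the end of inflammation.

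CC chemokines guide leukocytes by activating G protein-coupled receptors on them. Ccl3, a ligand of Ccr1, and Ccl4 are both made within hours by macrophages that sense microbes or damage. Ccl5 binds Ccr1 and Ccr3, among others, and is made by T cells, natural killer cells, and macrophages and dendritic cells exposed to interferon or microbial products. Ccl6 and Ccl9 are rodent chemokines that signal through Ccr1 and are made by myeloid cells without strong stimulation. Ccl22 binds Ccr4, which is found on regulatory T cells and type 2 helper T cells, and dendritic cells are a main source of it.

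Of these genes 5 lie in 1 cluster on chromosome 11 of GRCm38. Ccl5 (ENSMUSG00000035042) spans 83525778 to 83530518 on the minus strand, and Ccl9 (ENSMUSG00000019122) spans 83572919 to 83578636 on the same strand. Ccl6 (ENSMUSG00000018927) spans 83587882 to 83593087 and Ccl3 (ENSMUSG00000000982) 83647844 to 83649355, both on the minus strand. Ccl4 (ENSMUSG00000018930) spans 83662584 to 83664683 on the plus strand. Ccl22 (ENSMUSG00000031779) lies apart, on the plus strand of chromosome 8 at 94745590 to 94751699. Ccl6 overlaps E230016K23Rik, which neither matrix lists.

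The neighbours Ccl6 and Ccl9, both rodent ligands of Ccr1, are shown with the 250 bases before their start sites. Their levels ran together across clusters (Pearson's r 0.68), but those of Ccl6 ran as closely with Ccl3 (0.69) and Ccl4 (0.72). Any link between these sequences and the levels was not tested. Both stretches are from RefSeq (GRCm38.p6, minus strand, Ccl6 at chr11:83593088-83593337 and Ccl9 at chr11:83578637-83578886). Capitals mark the run of at least 8 bases that their best local alignment shares.
Ccl6: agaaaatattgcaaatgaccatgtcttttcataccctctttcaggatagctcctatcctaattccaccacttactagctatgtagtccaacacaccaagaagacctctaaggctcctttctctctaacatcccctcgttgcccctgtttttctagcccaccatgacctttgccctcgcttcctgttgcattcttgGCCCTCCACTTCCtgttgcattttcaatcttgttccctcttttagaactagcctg
Ccl9: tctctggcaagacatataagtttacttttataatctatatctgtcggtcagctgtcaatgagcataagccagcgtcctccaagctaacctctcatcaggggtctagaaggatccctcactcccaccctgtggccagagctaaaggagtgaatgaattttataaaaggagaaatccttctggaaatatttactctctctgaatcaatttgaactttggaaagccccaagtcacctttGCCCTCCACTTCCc
The shared run, GCCCTCCACTTCC, is 13 bases long and lies at -55 to -43 from the start of Ccl6 and at -14 to -2 from the start of Ccl9. It was found on either strand in 5 of 32817 promoter stretches of this length (0.0152%), these included. In the Ccl9 stretch a match to the NF-kB kappa B consensus lies at -35 to -26 and a match to the AP-1 motif TGANTCA at -53 to -47, with no overlap between them or with the shared run. The promoter table also held Ccl3 and Ccl22. Neither of these nor Ccl6 had a match to those motifs, to the core of the interferon-stimulated response element, to the Stat6 motif or to the interferon gamma activated site TTCNNNGAA, on either strand. Over all promoter stretches 7.25% held the kappa B consensus, 6.75% the AP-1 motif, 2.97% the interferon-stimulated core, 5.85% the Stat6 motif and 7.01% TTCNNNGAA. These are matches of letters in a short window and not measured binding sites.

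The Gata3KO matrix held 3434 barcodes with 19422237 UMIs (unique molecular identifiers, each standing for 1 captured transcript), and the Wt matrix 3290 barcodes and 15392330 UMIs. Barcodes with fewer than 500 UMIs, fewer than 200 genes or over 10% mitochondrial UMIs were set aside, which left 650 Gata3KO cells (18.9%) with a median of 13716 UMIs, and 990 Wt cells (30.1%) with a median of 5836. No barcode was shared between the kept cells of the libraries, and 2 were shared over all barcodes. Gata3 had 1 UMI in kept Gata3KO cells and 4 in kept Wt cells, too few to check the deletion (log2 ratio -2.22, interval -7.84 to 1.12), and 3' tags may lie outside the floxed part. Cx3cr1 stood at 360 CPM (UMIs of the gene divided by all UMIs of the summed cells and scaled to 1000000) in Gata3KO and at 226 CPM in Wt. Since each genotype has a single library, no test was possible, and all intervals are 95% intervals that cover counting error only. Differences between animals or preparations cannot be told apart from genotype. A member is called higher or lower where its CPM differed at least 1.5-fold between libraries, provided that it reached 20 CPM in one of them and that both together held 20 UMIs.

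Joint clustering, with all CC chemokine genes left out of it, gave 7 clusters. Clusters 0, 3 and 4 were macrophage-like and together held 454 Gata3KO and 406 Wt cells. All 11 macrophage markers were detected, with summed levels of 38314 CPM in Gata3KO and 38758 CPM in Wt. Cluster 0 (255 Gata3KO and 192 Wt cells) was led by the lipid-handling genes Fabp5 and Gpnmb. Cluster 3 (28 Gata3KO and 183 Wt cells) had Cxcl9 and Gbp2, which interferon induces, among its leading genes. Cluster 4 (171 Gata3KO and 31 Wt cells) was led by inflammatory and stress genes such as Cxcl2, Gdf15, Ier3 and Tnf. Most macrophages were thus in clusters 0 and 4 in Gata3KO and in clusters 0 and 3 in Wt, and a cluster that is mostly 1 library may reflect that library rather than a cell state.

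Cluster 2 was cDC2-like (65 Gata3KO and 183 Wt cells, led by Cd209a), with all 8 cDC2 markers detected. It also held monocyte-like cells, since Plac8 and Ifitm6 were among its leading genes, and the 8 monocyte markers summed to 3535 CPM in Gata3KO and 5595 CPM in Wt. A finer clustering at resolution 1.2 set 25 Gata3KO and 44 Wt monocyte-like cells apart, of which 19 Gata3KO and 29 Wt cells came from cluster 2 and 5 Gata3KO and 13 Wt cells from cluster 4. It left 44 Gata3KO and 149 Wt cDC2-like cells. Cluster 5 was mature dendritic cell-like, led by Ccr7, Il4i1, Cacnb3 and Fscn1, with all 12 markers detected and summed levels of 9037 CPM in Gata3KO and 10221 CPM in Wt. It held only 9 Gata3KO cells and 64 Wt cells, so each Gata3KO value there rests on 67501 UMIs. Cluster 1 (105 Gata3KO and 297 Wt cells of low UMI count) stayed unnamed, and cluster 6 (17 Gata3KO and 40 Wt cells, led by Col1a1) was collagen-rich.

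In macrophages, Ccl3 was higher in the Gata3KO library, Ccl5, Ccl9 and Ccl22 were lower, and Ccl4 and Ccl6 differed by less than 1.5-fold. So 1 member was called higher and 3 lower of the 6, all of which passed the filter on low values. Over all 5887 genes measured in macrophages, 4.55% were called higher, 6.74% lower and 11.3% either way. The median log2 ratio Gata3KO over Wt was -0.51 over the 6 members and 0.05 over all genes. In cDC2, Ccl5 alone was called (lower) of the 5 members that passed the filter, where 8.62% of 6070 genes were called higher, 12.5% lower and 21.1% either way. The median there was 0.12 over the 6 members, which takes in Ccl22 although it did not pass the filter, and -0.03 over all genes that passed it. Among mature dendritic cells, Ccl6 and Ccl9 were called higher and Ccl5 lower of the 5 members that passed the filter. With 17.6% of 3146 genes called higher there, 28.1% lower and 45.7% either way, a call in that class says little by itself. The median was -0.17 over the 6 members, with Ccl4 taken at its floor and Ccl3 included although it did not pass the filter. It was -0.09 over all genes measured, which all passed the filter.

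**Figure D1:**
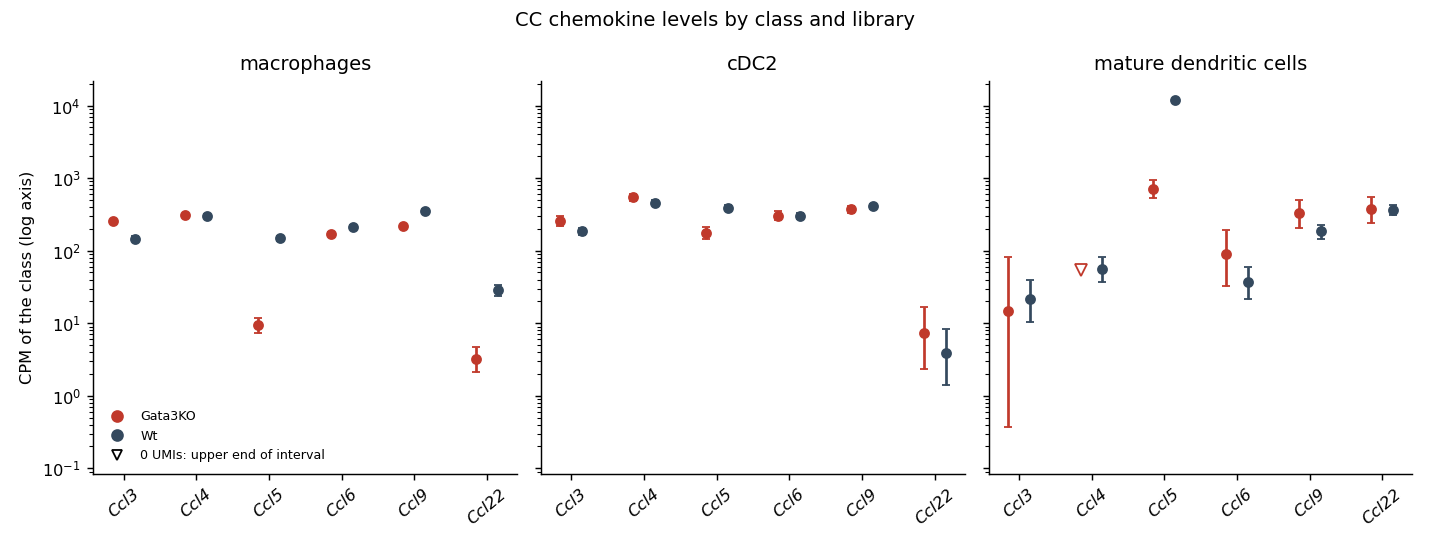
Level of each chemokine gene in CPM (log axis) in macrophages, cDC2 and mature dendritic cells, with Gata3KO in red and Wt in dark blue. Points are sums over all cells of 1 library and bars are exact Poisson intervals; Ccl5 in mature dendritic cells stands at 711 CPM in Gata3KO and 12048 CPM in Wt.

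Ccl5, a chemokine that draws T cells and monocytes, was lower in Gata3KO in all 3 classes. In macrophages it stood at 9.45 CPM (76 UMIs) in Gata3KO and at 148 CPM (692 UMIs) in Wt, a log2 ratio of -3.97 (interval -4.33 to -3.63), or 15.7-fold lower. Mature dendritic cells had it at 711 CPM (48 UMIs) in Gata3KO and at 12048 CPM (5560 UMIs) in Wt, with a log2 ratio of -4.08 (-4.52 to -3.67), or 16.9-fold lower. In cDC2 the levels were 175 CPM in Gata3KO and 390 CPM in Wt, with a log2 ratio of -1.15 (-1.45 to -0.87), which lies nearer to 0. That ratio was -0.3, under the fold used for a call, when every deposited barcode was used. The cluster named cDC2 in that setting was a different one. It held 880 barcodes with a median of 1742 UMIs and had no cDC2 marker among its leading genes, while the cluster with Cd209a stayed unnamed. Thinned to a common depth, cDC2 with Ccl5 made up 15% of 60 Gata3KO cells and 19.4% of 170 Wt cells, with overlapping intervals (7.1 to 26.6% in Gata3KO and 13.8 to 26.2% in Wt). The Wt cDC2 cell with the most Ccl5 (117 of 611 UMIs) also had 17 UMIs of mature dendritic cell markers. The gap was present within each of the 3 macrophage clusters at this resolution. Ccl5 stood at 8.94 CPM in Gata3KO and 60.5 CPM in Wt in the lipid-handling cluster 0 (log2 ratio -2.76). It stood at 74.3 CPM in Gata3KO and 333 CPM in Wt in the interferon cluster 3 (-2.17), and at 4.7 CPM in Gata3KO and 83.4 CPM in Wt in the stress cluster 4 (-4.15). The mean of the 3 within-cluster log2 ratios, which gives the clusters equal weight, was -3.02. Without the cell with the most Ccl5 of each library, the ratio in cluster 4 was -4.4 (-5.74 to -3.24). The finer stress cluster at resolution 1.2 had 4.3 CPM (13 UMIs) in Gata3KO and 60.3 CPM (23 UMIs) in Wt (-3.81). Without such cells it had 6 UMIs left in Gata3KO and 3 in Wt, and the interval included 0 (-2.12, -4.35 to 0.5). At the finer resolution of 1.2, a mixed cluster of 77 Gata3KO and 56 Wt cells, 47 of the Gata3KO and 16 of the Wt cells being from cluster 0, had Ccl5 at 22.2 CPM (35 UMIs) in Gata3KO and 12.8 CPM (15 UMIs) in Wt (0.8, -0.11 to 1.77). A single Gata3KO cell held 32 of those 35 UMIs, and without the cell with the most Ccl5 of each library the ratio was -2.45 (-4.91 to -0.56).

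The clusters were also ordered by their Ccl5 level. In Gata3KO the highest was the mature dendritic cell cluster, but that place rests on 1 of its 9 cells, without which it had 168 CPM (80.6 to 309 CPM) and could not be set apart from cDC2. Next came cDC2 (interval 146 to 210 CPM), then macrophage cluster 3 (45.4 to 115 CPM), with the unnamed cluster 1 at 27.9 CPM and clusters 0, 4 and 6 under 10 CPM. In Wt the mature dendritic cell cluster was followed by cDC2 (360 to 423 CPM) and macrophage cluster 3 (304 to 364 CPM), whose intervals overlap. Clusters 4, 1 and 0 came next at 83.4, 74.4 and 60.5 CPM, and cluster 6 was lowest at 16.7 CPM. The mature dendritic cells held 18.8% of all Ccl5 UMIs of kept Gata3KO cells and 80.2% of those of kept Wt cells, while being 1.38% of the Gata3KO and 6.46% of the Wt cells.

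Per cell, Ccl5 in mature dendritic cells ranged from 0 to 38 UMIs with a median of 1 in the 9 Gata3KO cells, and from 0 to 895 UMIs with a median of 19 in the 64 Wt cells. The ranges overlap, and 6 of 9 Gata3KO cells and 59 of 64 Wt cells had a Ccl5 UMI. A single Gata3KO cell held 38 of the 48 UMIs. Without the cell with the most Ccl5 UMIs of each library the log2 ratio was -5.94. Scaled to 10000 UMIs per cell, 2 of 9 Gata3KO cells and 45 of 64 Wt cells stood above 10. After each cell was thinned to 2000 UMIs, to put both libraries at 1 depth, Ccl5 was found in 2 of 7 Gata3KO cells (28.6%, exact binomial interval 3.67 to 71%) and in 79.2% of 53 Wt cells (65.9 to 89.2%).

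**Figure D2:**
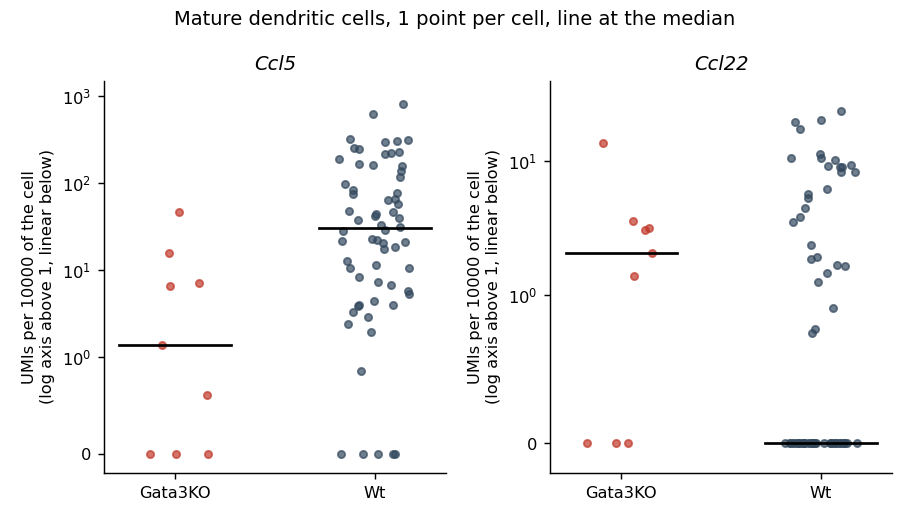
UMIs of Ccl5 and Ccl22 per 10000 UMIs in each mature dendritic cell (1 point per cell, line at the median; axis logarithmic above 1), Gata3KO left and Wt right. Of the Ccl5 values, 2 of 9 Gata3KO cells and 45 of 64 Wt cells lie above 10, and the Ccl22 ranges of the libraries overlap.

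In macrophages thinned to 2000 UMIs Ccl5 was found in 0.939% of 426 Gata3KO cells (0.256 to 2.39%) and in 10.5% of 391 Wt cells (7.63 to 14%); without thinning the shares were 3.96% in Gata3KO and 22.4% in Wt. The collagen-rich cluster 6, taken for comparison, gave 0 of 14 Gata3KO cells and 2.78% of 36 Wt cells, with median depths of 26308 UMIs in Gata3KO and 18358 UMIs in Wt. With so few cells (0 of 14 allows a share of up to 21.4%) the macrophage share of neither library could be told apart from background. Cluster 6 also held macrophage marker UMIs, which summed to 3633 CPM in Gata3KO and 7792 CPM in Wt, so its shares are not a clean measure of free RNA. Ccl5 was lower in Gata3KO outside the described classes too. Cluster 6 had 1.99 CPM (1 UMI) in Gata3KO and 16.7 CPM (14 UMIs) in Wt (log2 ratio -3.07, -8.47 to -0.35), under the filter on low values. The unnamed cluster 1 had 27.9 CPM in Gata3KO and 74.4 CPM in Wt (-1.42, -2.55 to -0.44). T and natural killer cells also make Ccl5. Of 9 of their markers, the Gata3KO matrix lists 4 (Cd3d, Trbc2, Gzma and Klrb1c) and the Wt matrix 6, and a gene that is not listed cannot be read as 0. In macrophages 4 were detected in Gata3KO, summing to 1.99 CPM, and 3 in Wt, summing to 8.36 CPM. In mature dendritic cells the listed ones had no UMI in either library. The mature dendritic cell markers Ccr7 (1.12 CPM in Gata3KO and 3.86 CPM in Wt, from 9 and 18 UMIs) and Il4i1 (3.98 CPM in Gata3KO and 12 CPM in Wt) were also lower in Gata3KO macrophages. The 12 markers of that list together were not, with sums of 261 CPM in Gata3KO and 230 CPM in Wt. Anxa3, the most abundant of them there, stood at 156 CPM in Gata3KO and 94.3 CPM in Wt. With cells that had a UMI of Ccr7, Fscn1, Il4i1 or Cacnb3 left out of the macrophages, Ccl5 had a log2 ratio of -3.61.

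Ccl3, a ligand of Ccr1, was the member called higher in Gata3KO macrophages, at 255 CPM (2051 UMIs) in Gata3KO and 146 CPM (679 UMIs) in Wt. Its log2 ratio was 0.81 (0.68 to 0.94), or 1.75-fold higher. Ccl3 stood at 123 CPM in Gata3KO and 72.7 CPM in Wt in cluster 0 (log2 ratio 0.76, 0.52 to 1), and at 331 CPM in Gata3KO and 121 CPM in Wt in cluster 3 (1.45, 1.06 to 1.82). In the stress cluster 4, where it was highest in both libraries, it stood at 439 CPM in Gata3KO and 522 CPM in Wt (-0.25, -0.43 to -0.07). This sign rests on 1 Wt cell, which held 112 of the 313 Wt UMIs: without the cell with the most Ccl3 of each library the values were 427 CPM in Gata3KO and 344 CPM in Wt (0.31, 0.1 to 0.53). The finer stress cluster had 408 CPM in Gata3KO and 446 CPM in Wt (-0.13, -0.36 to 0.11). Cluster 4 held 59.4% of the Ccl3 UMIs of kept Gata3KO cells and 25.8% of those of kept Wt cells, while being 26.3% of the Gata3KO cells and 3.13% of the Wt cells. The mean of the within-cluster ratios was 0.65. Over all macrophages the ratio stayed above 0 in each of 15 alternative settings, but it was under the fold used for a call in 5 of them. The lowest were 0.24 in cells without any UMI of 12 mature dendritic cell markers and 0.32 under a limit of 5% mitochondrial UMIs. The 12 markers include Anxa3, at 156 CPM in Gata3KO and 94.3 CPM in Wt macrophages, so that filter can also leave out macrophages that are not dendritic-like.

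In cDC2 Ccl3 stood at 255 CPM in Gata3KO and 185 CPM in Wt (log2 ratio 0.46, 0.18 to 0.74), under the fold used for a call. Most of it lay in few cells, with 3 of 65 Gata3KO cells and 5 of 183 Wt cells holding at least 50% of the UMIs. At resolution 1.2 the cDC2-like cells alone had 78.1 CPM in Gata3KO and 54.4 CPM in Wt, and the monocyte-like cells 667 CPM in Gata3KO and 708 CPM in Wt. Mature dendritic cells were low in Ccl3, with 1 UMI in Gata3KO and 10 UMIs in Wt. After thinning, Ccl3 was found in 26.8% of Gata3KO macrophages (22.6 to 31.2%) and in 17.1% of Wt macrophages (13.5 to 21.2%), against 7.14% of Gata3KO and 8.33% of Wt cells of cluster 6.

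Ccl4, an inflammatory chemokine encoded beside Ccl3, had nearly equal levels over all macrophages, at 310 CPM in Gata3KO and 305 CPM in Wt (log2 ratio 0.02, -0.07 to 0.12). Ccl4 stood at 98.1 CPM in Gata3KO and 123 CPM in Wt in cluster 0 (-0.32, -0.53 to -0.11), a sign that turned without the cell with the most Ccl4 of each library (0.05, -0.19 to 0.29). It stood at 279 CPM in Gata3KO and 194 CPM in Wt in cluster 3 (0.53, 0.14 to 0.9), where that alternative gave 0.29 (-0.18 to 0.74). In the stress cluster 4 it stood at 617 CPM in Gata3KO and 1370 CPM in Wt (-1.15, -1.27 to -1.03), with -0.81 (-0.94 to -0.67) without those cells. The finer stress cluster had 579 CPM in Gata3KO and 915 CPM in Wt (-0.66, -0.83 to -0.49). Cluster 4 held 64.2% of the Ccl4 UMIs of kept Gata3KO cells and 34.3% of those of kept Wt cells, and the mean of the within-cluster ratios was -0.32. The value over all macrophages was above 0 in 8 and below 0 in 7 of 15 alternative settings.

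In cDC2 the levels of Ccl4 were 542 CPM in Gata3KO and 459 CPM in Wt (log2 ratio 0.24, 0.06 to 0.42), and this direction turned at the finer resolution, which took monocyte-like cells (19 of 65 Gata3KO and 29 of 183 Wt cells) out of the class. The cDC2-like cells at resolution 1.2 had 50.5 CPM in Gata3KO and 133 CPM in Wt (-1.39, -2.1 to -0.75), and the monocyte-like cells 1194 CPM in Gata3KO and 1930 CPM in Wt (-0.69, -0.86 to -0.53). In mature dendritic cells Ccl4 had 0 UMIs in Gata3KO, which allows up to 44.4 CPM (3 counts over the class), and 26 UMIs in Wt (56.3 CPM), a difference that was not detectable at this depth. After thinning, 24.2% of Gata3KO macrophages and 19.4% of Wt macrophages had Ccl4, with overlapping intervals (20.2 to 28.5% in Gata3KO and 15.6 to 23.7% in Wt).

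Cells with Ccl3 often had Ccl4 too. Of thinned macrophages with Ccl3, 47.4% in Gata3KO (54 of 114) and 50.7% in Wt (34 of 67) also had Ccl4. Of those without Ccl3, 15.7% in Gata3KO and 13% in Wt had Ccl4, and the intervals of cells with and without Ccl3 did not overlap in either library. Early-response genes, which tissue dissociation can also induce, were higher in Gata3KO macrophages and cDC2 as well. The 12 genes of that list, all detected in both libraries, summed to 3969 CPM in Gata3KO and 2309 CPM in Wt macrophages. In cDC2 they summed to 6396 CPM in Gata3KO and 3296 CPM in Wt. In cluster 4 they summed to 7829 CPM in Gata3KO and 8335 CPM in Wt. Their part in the Ccl3 and Ccl4 values was not tested.

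**Figure D3:**
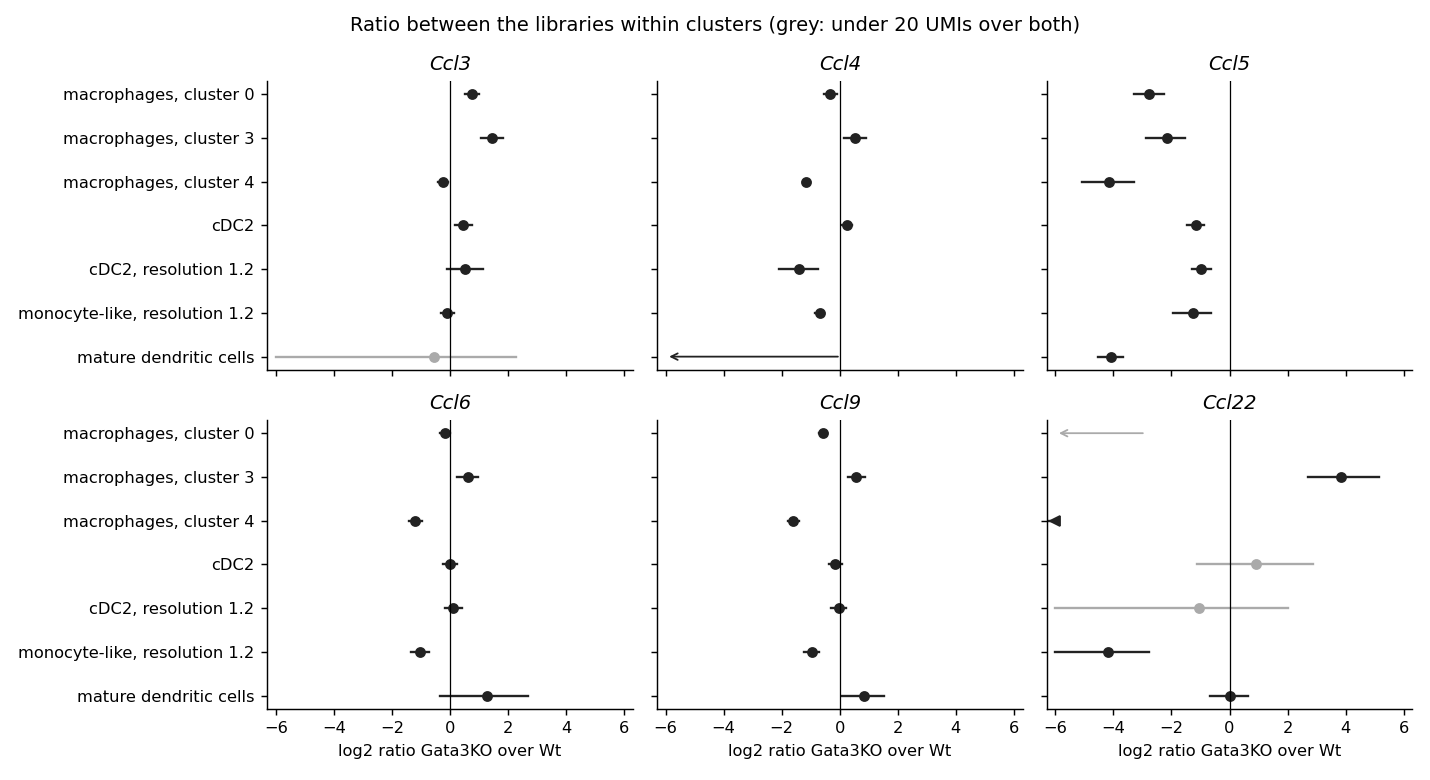
Log2 ratio Gata3KO over Wt of each chemokine within 3 macrophage clusters, cDC2, finer cDC2-like and monocyte-like cells and mature dendritic cells. Points are ratios with exact 95% intervals, arrows run left from the upper end where Gata3KO had 0 UMIs, the triangle at the edge is Ccl22 in cluster 4 at -8.14, and grey marks values under 20 UMIs; Ccl5 lies left of 0 in every row, while Ccl3, Ccl4, Ccl6 and Ccl9 have rows on both sides, that of Ccl3 in cluster 4 resting on 1 Wt cell.

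Ccl9, a Ccr1 ligand of rodents, was called lower in Gata3KO macrophages, at 218 CPM (1755 UMIs) in Gata3KO and 355 CPM (1657 UMIs) in Wt. The log2 ratio was -0.7 (-0.8 to -0.61), or 1.63-fold lower. A single Wt cell of cluster 0 held 267 of the 1657 Wt UMIs, and without the cell with the most Ccl9 UMIs of each library the log2 ratio was -0.5, under the fold used for a call. In cluster 0 it stood at 214 CPM in Gata3KO and 316 CPM in Wt (-0.57, -0.7 to -0.43), but at 202 CPM in Gata3KO and 216 CPM in Wt (-0.1, -0.25 to 0.05) without the cell with the most Ccl9 of each library. In cluster 4 Ccl9 stood at 203 CPM in Gata3KO and 615 CPM in Wt (-1.6, -1.79 to -1.41), whereas in cluster 3 it stood at 472 CPM in Gata3KO and 318 CPM in Wt (0.57, 0.28 to 0.86). Without those cells the ratios were -1.42 in cluster 4 and 0.55 in cluster 3. The mean of the within-cluster ratios was -0.53. Of 15 alternative settings, all gave a ratio below 0 and 5 a ratio under the fold used for a call, the nearest to 0 being -0.16 in cells without any UMI of the mature dendritic cell markers. As for Ccl3, that filter can also leave out macrophages that are not dendritic-like.

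In cDC2 Ccl9 was at 370 CPM in Gata3KO and 411 CPM in Wt (log2 ratio -0.15, -0.37 to 0.06), with no difference beyond counting error. The mature dendritic cells had 326 CPM (22 UMIs) of it in Gata3KO and 184 CPM (85 UMIs) in Wt (0.82, 0.08 to 1.51). There 1 of the 9 Gata3KO cells held 17 of the 22 UMIs, and without the cell with the most UMIs of each library the log2 ratio turned to -0.72. After thinning Ccl9 was found in 22.3% of Gata3KO macrophages (18.4 to 26.6%) and 30.2% of Wt macrophages (25.7 to 35%). This order did not hold at other depths, with 19.3% in Gata3KO and 18% in Wt at 1000 UMIs and 61.2% in Gata3KO and 60.1% in Wt without thinning. Cluster 6 gave 28.6% in Gata3KO and 27.8% in Wt at 2000 UMIs, and had 353 CPM of Ccl9 in Gata3KO and 195 CPM in Wt.

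Ccl6, the other Ccr1 ligand of rodents, differed little over all macrophages, at 169 CPM in Gata3KO and 209 CPM in Wt (log2 ratio -0.31, -0.43 to -0.19). It followed Ccl9 within the clusters. In cluster 0 it stood at 150 CPM in Gata3KO and 169 CPM in Wt (-0.17), in cluster 3 at 294 CPM in Gata3KO and 193 CPM in Wt (0.61), and in cluster 4 at 185 CPM in Gata3KO and 425 CPM in Wt (-1.2). Without the cell with the most Ccl6 of each library these ratios were -0.03, 0.46 and -1.07. Both genes were thus higher in the Gata3KO library in the interferon cluster and lower in the stress cluster. In cDC2 Ccl6 stood at 303 CPM in Gata3KO and at 303 CPM in Wt (0, -0.24 to 0.24). For mature dendritic cells there were 6 UMIs in Gata3KO and 17 UMIs in Wt, with an interval that includes 0 (1.27, -0.36 to 2.68).

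The finer clustering split these values further. Monocyte-like cells made up 5 of the 171 Gata3KO cells and 13 of the 31 Wt cells of cluster 4. The whole finer monocyte-like cluster held 25 Gata3KO and 44 Wt cells, of which 19 Gata3KO and 29 Wt cells came from cluster 2. No level was computed for its cluster 4 cells alone. In the whole, Ccl6 stood at 303 CPM in Gata3KO and 621 CPM in Wt (log2 ratio -1.04). Ccl9 there stood at 429 CPM in Gata3KO and 840 CPM in Wt (-0.97). The finer stress cluster without the monocyte-like cells (164 Gata3KO and 21 Wt cells) had Ccl6 at 170 CPM in Gata3KO and 121 CPM in Wt (0.5, 0.06 to 0.97). It had Ccl9 at 173 CPM in Gata3KO and 184 CPM in Wt (-0.08, -0.45 to 0.3), so the lower values of cluster 4 were not seen there.

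Cells of the lipid-handling cluster 0 fell into finer clusters whose ratios differed. In one (156 Gata3KO and 57 Wt cells, all from cluster 0) Ccl6 stood at 94.6 CPM in Gata3KO and 255 CPM in Wt (-1.43), and Ccl9 at 122 CPM in Gata3KO and 584 CPM in Wt (-2.26). Of its 476 Wt UMIs of Ccl9, 267 were from 1 cell, which also held 86 of its 208 Wt UMIs of Ccl6. In another (77 Gata3KO and 56 Wt cells, with 47 Gata3KO and 16 Wt cells from cluster 0 and the collagen-rich cells among the rest) Ccl6 stood at 236 CPM in Gata3KO and 58.1 CPM in Wt (2.02), and Ccl9 at 477 CPM in Gata3KO and 249 CPM in Wt (0.93). The collagen-rich cells were 17 of the Gata3KO and 40 of the Wt cells there. They had Ccl6 at 31.9 CPM in Gata3KO and 25.1 CPM in Wt. Since they made up unequal parts of the libraries, these ratios are not those of macrophages alone. A further finer cluster held 41 Gata3KO and 116 Wt cells of cluster 0. It showed no difference beyond counting error in Ccl6 (0.3, -0.08 to 0.68) or Ccl9 (0.18, -0.18 to 0.53). The ratios of both genes thus varied between the finer clusters.

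Ccl9 was also counted in macrophages with and without Ccl6. In Gata3KO 43.2% of thinned macrophages with Ccl6 had Ccl9, against 16.9% of those without, whereas in Wt 36.3% of those with and 28% of those without Ccl6 had it, with overlapping intervals in Wt. Whether the libraries differ in this was not tested.

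Ccl22, the Ccr4 ligand, was counted in few macrophages and in most Gata3KO and many Wt mature dendritic cells (6 of 9 Gata3KO and 30 of 64 Wt cells). In mature dendritic cells it stood at 370 CPM (25 UMIs) in Gata3KO and 368 CPM (170 UMIs) in Wt, with a log2 ratio of 0.01 (-0.66 to 0.62). The whole interval lies above the Ccl5 ratio of -4.08 in the same cells. Ccl22 had a median of 1 UMI and a highest value of 11 over the 9 Gata3KO cells, and a median of 0 and a highest value of 29 over the 64 Wt cells, and the ranges overlap. After thinning, 3 of 7 Gata3KO cells (42.9%) and 34% of 53 Wt cells had it, but at 1000 UMIs the order turned, with 11.1% of Gata3KO and 21% of Wt cells. No thinned cDC2 had it in either library, which allows shares of up to 5% of 60 Gata3KO cells and up to 1.76% of 170 Wt cells.

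In macrophages Ccl22 stood at 3.23 CPM (26 UMIs) in Gata3KO and 28.3 CPM (132 UMIs) in Wt, a log2 ratio of -3.13 (-3.8 to -2.52) that rests on few cells. It was found in 4 of 454 Gata3KO cells and in 14 of 406 Wt cells. A single Gata3KO cell of cluster 3 held 23 of the 26 UMIs, and it also had 22 UMIs of Ccr7, Fscn1, Il4i1 and Cacnb3 together and 135 UMIs of the C1q genes, markers of mature dendritic cells and of macrophages. A single Wt cell of cluster 4 held 101 of the 132 UMIs, had 1 UMI of those dendritic cell markers and 4 of C1q, and was placed with the monocyte-like cells at resolution 1.2. Without these cells 3 UMIs were left in Gata3KO and 31 in Wt, and the log2 ratio was -4.16. Within clusters the ratio was 3.85 (2.69 to 5.14) in cluster 3, from 24 UMIs in Gata3KO and 9 in Wt. In cluster 4 it was -8.14 (-11.2 to -6.25), from 2 UMIs in Gata3KO and 106 in Wt. Each of these ratios rests mostly on 1 cell. In cluster 0 there were 0 UMIs in Gata3KO and 17 in Wt. In cDC2 5 UMIs in Gata3KO and 6 in Wt did not pass the filter on low values.

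**Figure D4:**
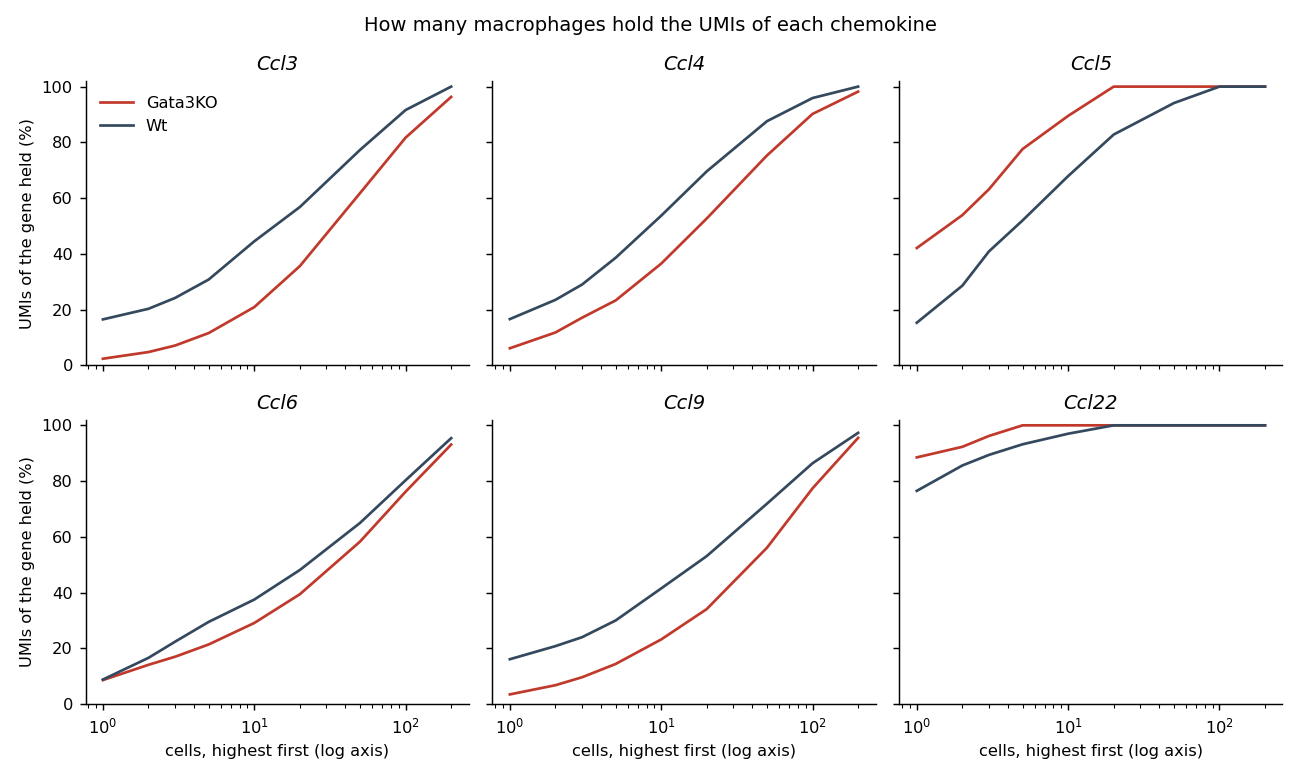
Percent of each chemokine's macrophage UMIs held by the cells with the most of it, counted from the highest cell (log axis), with Gata3KO in red and Wt in dark blue. A single cell holds 88.5% of the Ccl22 UMIs in Gata3KO and 76.5% in Wt, whereas 35 Gata3KO and 23 Wt cells are needed to reach 50% for Ccl6.

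How many cells carried each chemokine differed between the members. At least 50% of the macrophage UMIs lay in 35 of 454 Gata3KO and 14 of 406 Wt cells for Ccl3, and in 18 Gata3KO and 9 Wt cells for Ccl4. For Ccl9 it was 40 Gata3KO and 17 Wt cells. For Ccl5 it was 2 Gata3KO and 5 Wt cells. The highest Wt cell of Ccl3 (112 UMIs) was also the highest of Ccl4 (237 UMIs), and it lay in cluster 4. For Ccl3, Ccl4 and Ccl9, 1 Wt cell held 16.1 to 16.6% of the class's UMIs. The highest Gata3KO cell held 2.39% of the Ccl3, 6.14% of the Ccl4 and 3.48% of the Ccl9 UMIs.

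**Figure D5:**
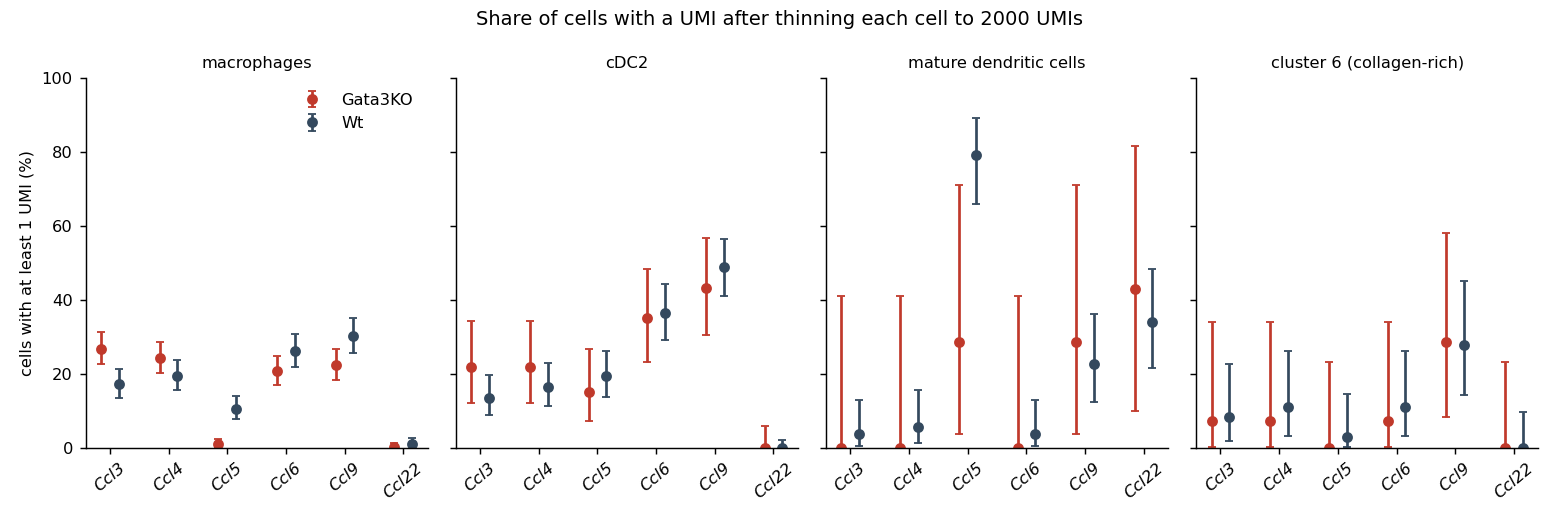
Percent of cells with at least 1 UMI of each chemokine after every cell was thinned to 2000 UMIs, with exact binomial intervals, Gata3KO in red and Wt in dark blue. In macrophages the Gata3KO share is above Wt for Ccl3 (26.8% in Gata3KO and 17.1% in Wt) and below it for Ccl5 (0.939% in Gata3KO and 10.5% in Wt); the collagen-rich cluster 6 is shown for comparison.

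Across 13 profiles (each a cluster in 1 library with at least 10 cells, so without the 9 Gata3KO mature dendritic cells) the levels of some members ran together. The profiles share 2 libraries and are not independent, so the correlations of log2 CPM describe them only. Pearson's r was 0.9 for Ccl3 with Ccl4, 0.68 for Ccl6 with Ccl9 and 0.67 for Ccl5 with Ccl22. It was -0.23 for Ccl3 with Ccl5. Since Ccl5 stood at 12048 CPM in the Wt mature dendritic cell profile and at no more than 390 CPM in any other, that 1 profile weighs heavily in every correlation of Ccl5. Ccl22 stood at 368 CPM in that profile, at 177 CPM in Wt cluster 4 and at 89.2 CPM in Gata3KO cluster 3. It reached no more than 7.25 CPM in any other. These few profiles weigh heavily in every correlation of Ccl22, and the cluster 4 and cluster 3 levels each rest mostly on 1 cell. Ccl4 with Ccl6 and Ccl3 with Ccl6 had 0.72 and 0.69.

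The genes most like each member over these profiles were found in the same way. For Ccl3 they were Rasgef1b (0.96), the pattern recognition receptor gene Tlr2 (0.94) and the haem-responsive repressor gene Bach1 (0.93). For Ccl4 they were Clec4e, a receptor for damaged cells and mycobacterial lipid (0.95), Ier3 (0.94) and the inflammasome sensor gene Nlrp3 (0.94). For Ccl5, where the Wt mature dendritic cell profile weighs heavily, they were Phf11a (0.97), the haematopoietic myosin gene Myo1g (0.97) and the ubiquitin ligase gene Rnf114 (0.94). Ccl6 was most like the tetraspanin gene Cd53 (0.95), Crlf2, a subunit of the receptor for thymic stromal lymphopoietin (0.93), and the monocyte gene Ly6c2 (0.91). Ccl9 had weaker likenesses, with Mcub (0.86), Borcs8 (0.82) and the purine enzyme gene Pnp (0.8). Ccl22, where few profiles weigh heavily and some rest mostly on 1 cell, was most like AA467197 (0.86), Btg1 (0.85) and the sterol synthesis gene Sqle (0.84).

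Of 14 other CC chemokine genes listed for comparison, 8 were in the files and 4 were measured in macrophages, with 1 called higher and 2 lower in Gata3KO, where the background over all genes was 4.55% higher and 6.74% lower. Ccl7, a Ccr2 ligand, stood at 85.4 CPM in Gata3KO and 30 CPM in Wt (log2 ratio 1.51), and Ccl2, the main Ccr2 ligand, at 185 CPM in Gata3KO and 134 CPM in Wt (0.46). Ccl8 stood at 151 CPM in Gata3KO and 270 CPM in Wt (-0.84), and Ccl12, a mouse Ccr2 ligand, at 35.3 CPM in Gata3KO and 104 CPM in Wt (-1.56). The monocyte chemokines thus went both ways. In cDC2 Ccl2 was the only one measured, at 58 CPM in Gata3KO and 151 CPM in Wt (-1.38), opposite in sign to its macrophage value, where 12.5% of all genes were called lower. None passed the filter in mature dendritic cells.

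Of 14 receptor genes 9 were in the files and 4 were measured in macrophages, with 2 called higher and 1 lower, against the same 4.55% and 6.74% of all genes. Ccr1, the receptor of Ccl3, Ccl5, Ccl6 and Ccl9, stood at 63.2 CPM in Gata3KO and 26.2 CPM in Wt (log2 ratio 1.27). Ccrl2, a chemerin-binding receptor that does not signal, stood at 156 CPM in Gata3KO and 80 CPM in Wt (0.96), and Ccr2, the monocyte receptor, at 234 CPM in Gata3KO and 407 CPM in Wt (-0.8). In cDC2 Ccr1 (34.8 CPM in Gata3KO and 16 CPM in Wt) and Ccrl2 (116 CPM in Gata3KO and 72.8 CPM in Wt) were called higher, as were 8.62% of all genes. In mature dendritic cells Ccr7, which leads these cells to lymph nodes, was at 1156 CPM in Gata3KO and 1255 CPM in Wt (-0.12, -0.48 to 0.22). Dpp4, a peptidase that trims Ccl3, Ccl5 and Ccl22, was at 252 CPM in Gata3KO and 377 CPM in Wt in those cells (-0.58, -1.39 to 0.14), at 157 CPM in Gata3KO and 171 CPM in Wt in cDC2, and under the filter in macrophages.

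Among 20 genes of transcription factors and feedback inhibitors that act upstream of chemokine genes, 19 were measured in macrophages, with 4 called higher and 3 lower in Gata3KO (4.55% and 6.74% over all genes). The lower ones included the interferon pathway genes Irf7 (203 CPM in Gata3KO and 1084 CPM in Wt, log2 ratio -2.42) and Irf1 (54.3 CPM in Gata3KO and 133 CPM in Wt, -1.29). The higher ones were the early-response genes Egr1 (0.84), Fos (0.79) and Atf3 (0.67) and the NF-kB inhibitor gene Nfkbia (0.63). The NF-kB subunit genes Nfkb1, Nfkb2, Rela, Relb and Rel had log2 ratios between -0.48 and 0.22 in macrophages, none of them called there. In cDC2, where all 20 were measured, 5 were called higher and 3 lower (8.62% and 12.5% over all genes), with Irf7 at -1.6, Rel at 0.64 and Relb at -0.7. Of the 16 measured in mature dendritic cells, 6 were called lower and none higher (28.1% and 17.6% over all genes), with Irf7 at 252 CPM in Gata3KO and 1378 CPM in Wt (-2.45), Nfkb1 at -1.22 and Nfkb2 at -0.84. Nfkb1 and Nfkb2 had 8 and 9 UMIs in Gata3KO, and the interval of Nfkb2 includes 0 (-2 to 0.14). The other NF-kB subunit genes were not called there, with Relb at 1215 CPM in Gata3KO and 1018 CPM in Wt (0.25), Rela at 0.1 and Rel at -0.45. The medians over the measured genes of this list were -0.06 in macrophages, -0.06 in cDC2 and -0.46 in mature dendritic cells, beside 0.05, -0.03 and -0.09 over all genes.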

How the data were processed

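The deposited matrices hold raw UMI counts per gene and cell, 1 matrix per library, and the authors listed only genes found in at least 5 cells, as the values show. Per the submitters' processing notes the tools were Cell Ranger 3.0.1, R 3.6.1 and Seurat 3.0.2 with the mm10 build; cell filters applied before deposit are not stated in these sources. The 6 members and all gene lists were chosen with earlier results of these data known.

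Cells were kept from 500 UMIs and 200 genes upwards where no more than 10% of UMIs were mitochondrial. Both libraries were clustered together without integration, with 14 CC chemokine genes left out (2000 variable genes, 30 principal components, 15 neighbours, Leiden resolution 0.6; scanpy 1.11.5, leidenalg 0.10.2, Python 3.11.15). Clusters were named by marker scores, with a minimum of 0.15, so names are rebuilt here and are not the submitters'. Counts were summed per class and library and divided by the class total (CPM). Log2 ratios carry exact conditional binomial intervals, CPM levels carry exact Poisson intervals, and shares of cells carry Clopper-Pearson intervals. A gene was measured at 20 CPM or more in 1 library and 20 UMIs or more over both. With 1 library per genotype no test was made. Calculations were tested on simulated data, with counts drawn per class and so without any spread between single cells. Of 100 genes changed 1.5-fold, the interval lay wholly on the right side of 0 for 95 in macrophages. It did so for 53 in cDC2 and 13 in mature dendritic cells.

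Named genes were all members, the measured genes of the comparison lists (some of which are not reported here), Gata3 and Cx3cr1, genes leading a cluster, and for each member the 3 genes with the highest Pearson correlation over cluster-by-library profiles (log2 of CPM + 10, genes at 50 CPM or more in a profile). Shares were also computed on cells thinned to 2000 UMIs, which left out 28 Gata3KO and 15 Wt macrophages, 5 Gata3KO and 13 Wt cDC2, and 2 Gata3KO and 11 Wt mature dendritic cells. Doublets were not removed from the values given: Scrublet called 4 of 650 Gata3KO and 0 of 990 Wt cells, and leaving these and the cells above the 99th percentile of UMIs out was an alternative, beside other cell filters, clusterings, scalings and left-out cells. Promoter stretches came from RefSeq (GRCm38.p6), which matched 4 members.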

Additional observations from a re-analysis of the deposited data

Results flagged for a closer look

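Several chemokines had Gata3KO over Wt log2 ratios of opposite sign in different macrophage clusters, with counting intervals that lay on opposite sides of 0. Each cluster has 1 library per genotype, so the differences between clusters were not tested. Ccl3 had ratios of 0.76 in cluster 0 and 1.45 in cluster 3 but -0.25 in cluster 4, where the sign rests on 1 Wt cell (0.31 without the cell with the most Ccl3 of each library). Ccl4 had a ratio of 0.53 in cluster 3, against -0.32 in cluster 0 and -1.15 in cluster 4; without the cell with the most Ccl4 of each library the values were 0.29, 0.05 and -0.81, and the first 2 had intervals that include 0. Ccl6 had a ratio of 0.61 in cluster 3 and -1.2 in cluster 4, or 0.46 and -1.07 without such cells. Ccl9 had a ratio of 0.57 in cluster 3, against -0.57 in cluster 0 and -1.6 in cluster 4, or 0.55, -0.1 and -1.42 without such cells. The finer clustering left the stress cells without a lower Ccl6 (0.5) and with Ccl9 at -0.08.

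Ccl22 had a ratio of 3.85 in cluster 3 and -8.14 in cluster 4, where 1 cell held 23 of the 24 Gata3KO UMIs of cluster 3 and 1 cell held 101 of the 106 Wt UMIs of cluster 4. Ccl9 had a ratio of -0.7 in macrophages and 0.82 in mature dendritic cells, a difference that was not tested and whose second value rests on 22 UMIs of 9 Gata3KO cells and turned to -0.72 without the cell with the most Ccl9 of each library.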

How the results depend on the processing

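Log2 ratios are Gata3KO over Wt, in macrophages unless another class is named. Ccl5 and Ccl22 were lower in Gata3KO past 1.5-fold in every alternative that gave a value (15 for Ccl5, 14 for Ccl22), from -4.63 to -3.02 for Ccl5 and from -7.21 to -1.79 for Ccl22. In mature dendritic cells Ccl5 ranged from -5.94 to -3.41 over 12 alternatives. Median-of-ratios scaling shifted all genes of mature dendritic cells by -0.14. The share of all genes past 1.5-fold was computed only for the values reported. It was 11.3% in macrophages, 21.1% in cDC2 and 45.7% in mature dendritic cells. The counts of members past 1.5-fold in other settings thus have no background beside them and describe the settings only.

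With every deposited barcode Ccl3 was 1.32, Ccl4 0.59, Ccl5 -3.51, Ccl9 -0.9 and Ccl22 -6.62, and 2 members in cDC2 and 5 in mature dendritic cells passed 1.5-fold, against 1 and 3 in the values reported. The cluster named cDC2 in that setting had a median of 1742 UMIs, and the cluster with Cd209a stayed unnamed. At up to 20% mitochondrial UMIs Ccl4 was 0.16, Ccl5 -3.63, Ccl6 -0.08, Ccl9 -0.53 and Ccl22 -6.72, with 4 members past 1.5-fold in cDC2. With a stricter filter (1000 UMIs or more, mitochondrial share up to 5%) Ccl3 was 0.32, Ccl4 -0.33, Ccl6 -0.55 and Ccl9 -1.24, with 2 members past 1.5-fold in cDC2, where Ccl4 turned to -1.05. Clustering with the CC chemokines gave Ccl3 0.49, Ccl4 -0.31 and Ccl5 -3.55, with 3 members in cDC2. Resolution 0.3 gave Ccl3 0.57, Ccl4 -0.23, Ccl5 -3.25, Ccl9 -0.84 and Ccl22 -7.21, with 3 members in cDC2. Resolution 1.2 gave Ccl3 0.58, Ccl4 -0.16, Ccl6 -0.6 and Ccl9 -1.04, with 2 members in cDC2, where Ccl4 turned to -1.39.

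Weighting every cell alike gave Ccl4 0.27, Ccl9 -0.56 and Ccl22 -1.79, with 2 members in cDC2. Thinning to 2000 UMIs gave Ccl3 0.63 and Ccl4 0.14, with 3 members in cDC2 and 1 in mature dendritic cells. Without macrophages that had a UMI of any mature dendritic cell marker Ccl3 was 0.24, Ccl4 -0.25, Ccl5 -4.63 with 0 Gata3KO UMIs set to the floor of 3 over the class, Ccl9 -0.16 and Ccl6 turned to 0.15, with 1 member past 1.5-fold. Those markers include genes that macrophages express, such as Anxa3, so this setting can leave out more than dendritic-like cells. The mean of within-cluster ratios was 0.65 for Ccl3, -0.32 for Ccl4, -3.02 for Ccl5 and -0.53 for Ccl9, and was not possible in cDC2 and mature dendritic cells, which are 1 cluster each.

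Alternatives chosen after seeing the data left out single cells. Without cells that had Ccr7, Fscn1, Il4i1 or Cacnb3, Ccl3 was 0.67, Ccl4 -0.1, Ccl5 -3.61, Ccl6 -0.52 and Ccl22 -3.84. Without the cell with the most UMIs of the member in each library, Ccl3 was 1.03, Ccl4 0.19, Ccl5 -4.52, Ccl9 -0.5 and Ccl22 -4.16, and Ccl9 in mature dendritic cells turned to -0.72. Within clusters the same alternative turned Ccl3 in cluster 4 to 0.31 and Ccl4 in cluster 0 to 0.05. Of 36 shares of cells, 14 moved when cells were thinned to 1000 UMIs and 24 when they were not thinned. With no limit on low values, the other CC chemokine, receptor and processing genes past 1.5-fold numbered 10 in macrophages, 7 in cDC2 and 4 in mature dendritic cells, against 6, 4 and 1, and with a limit of 100 CPM 0 in mature dendritic cells. The share over all genes was not computed at these limits. The cause of these shifts was not tested. No paired analysis was possible because there was 1 library per genotype, and for the same reason no replicate could be left out. The 9 Gata3KO mature dendritic cells limit every value of that class.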
